A study of Mus musculus with 15 samples.

Results

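The gelsolin family is a group of actin regulators built from repeats of the gelsolin domain, and its founding members cut actin filaments and cap their fast-growing ends in the presence of calcium. The 7 genes described here, Scin, Gsn, Capg, Vil1, Avil, Flii and Svil, were chosen by name from the 19937 genes of an array study of mouse bone marrow progenitors. The family was singled out because Scin was much higher in every Cebpa mutant group of these arrays. Scin's differences between mutants and controls are therefore given as values with no test, while the other 6 members were tested. Each member was read from 1 probe set, the probe set identifiers being 10400072 for Scin, 10471655 for Gsn, 10539135 for Capg, 10347364 for Vil1, 10366774 for Avil, 10386551 for Flii and 10453636 for Svil.

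The arrays hold 5 groups of 3 samples, each sample being sorted marrow cells of a female C57BL/6 mouse taken 3 weeks after the conditional knockout. Cebpa encodes the transcription factor C/EBPα, which drives the step into the granulocyte and macrophage lineages. The granulocyte-macrophage progenitors (GMPs) came from cebpa fl/p30; Mx1Cre mice (GMP fl/p30), cebpa fl/BRM2; Mx1Cre mice (GMP fl/BRM2) and cebpa fl/+; Mx1Cre control mice (GMP fl/+). The pre-granulocyte-macrophage progenitors (preGMs), the less mature stage, came from cebpa fl/p30; Mx1Cre mice (preGM fl/p30) and from controls whose label reads cebpa +/+:Mx1Ce (preGM +/+). As background, Mx1Cre is a Cre recombinase under an interferon-responsive promoter that acts widely in blood-forming cells, so that the floxed (fl) allele is lost and the other allele remains. From the p30 allele only the short form of C/EBPα is translated, and BRM2 is a mutation of the basic region that impairs repression of E2F. GMP fl/+ cells thus kept 1 normal allele, whereas preGM +/+ cells had 2, and a comparison of the control stages also compares these genotypes. So does a comparison of the p30 difference between GMPs and preGMs, since each stage has its own control genotype. The labels do not give the animals' age. The 3 fl/p30 animals gave both a preGM and a GMP sample, so the 15 arrays come from 12 animals.

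Values are the log2 expression values the authors deposited, and differences are log2 differences, with the mutant or the later stage first. Tests came from limma with 5 group means over all 15 arrays, and a gene was called at a Benjamini-Hochberg adjusted p under 0.05 over all 19937 genes. The array medians lay between 6.03 and 6.23, and a level below them is read here as dim. Probe sets differ in brightness, so levels are compared between groups within a gene and not between genes. Cebpa itself lay between 8.68 and 9.31 in GMP fl/p30, 8.48 and 8.86 in GMP fl/BRM2, 8.10 and 8.70 in GMP fl/+, 8.90 and 9.28 in preGM fl/p30 and 8.53 and 8.61 in preGM +/+. The mutant alleles are still transcribed and the position of the probes in the gene is not used here, so this level does not check the genotypes. Of the sort markers, Fcgr3, 1 of the Fc receptors of the gate that separates GMPs from preGMs, was higher in GMPs than in preGMs by 2.35 within fl/p30 (adjusted p = 7.26e-05) and by 2.98 between the controls (adjusted p = 4.59e-06, limma). Fcgr2b, another Fc receptor of this gate, was 0.98 higher in GMPs within fl/p30, without a call (adjusted p = 0.172 in limma). Against GMP fl/+ it differed by -1.07 in GMP fl/p30 (adjusted p = 0.051) and -1.05 in GMP fl/BRM2 (adjusted p = 0.0903, limma), without a call. Its GMP fl/p30 arrays overlapped those of preGM +/+. Among 7 sort gate genes measured, 1 was called higher and 0 lower in GMPs within fl/p30, where 0.642% of all genes were called. Between the controls, 2 of the 7 were called higher and 3 lower, where 10.2% of all genes were called. Of 7 myeloid identity genes such as Mpo and Elane, 5 to 7 were above the array median on every array, and their median difference was -1.08 in GMP fl/p30 and -0.85 in GMP fl/BRM2 against GMP fl/+ and -1.42 in preGM fl/p30 against preGM +/+. The preGM +/+ group holds 1 array with a high mean level of 6 B cell genes (the group ran between 6.57 and 8.65), and the ranges over left-out arrays include fits without it.

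Within the family, Scin (adseverin, or scinderin), Gsn (gelsolin) and Vil1 (villin) sever and cap filaments in a calcium-dependent way. Capg caps filament ends without severing them and is abundant in macrophages. Avil (advillin), Vil1 and Svil (supervillin) carry a villin headpiece in addition, Vil1 being best known in the microvilli of the gut and Avil in sensory neurons. Flii (flightless) joins gelsolin repeats to leucine-rich repeats and also acts as a nuclear receptor coactivator, and Svil ties actin and myosin II to membranes. In blood cells, Scin is known from megakaryocytes and platelets, and gelsolin for remodelling of actin in platelets and neutrophils.

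The start regions of Scin, of the only other member searched with the same E2F core letters, Flii, and of Capg, which behaved differently from Scin in preGMs, are printed for comparison. From RefSeq's promoter table (GRCm38.p6), 8 windows for 6 members were searched, each of 300 bases with 250 before the start and 50 after it. Svil was not searched. Capitals mark matches to the motifs that were searched on both strands.
Scin, chr12:40134179-40134478, minus strand: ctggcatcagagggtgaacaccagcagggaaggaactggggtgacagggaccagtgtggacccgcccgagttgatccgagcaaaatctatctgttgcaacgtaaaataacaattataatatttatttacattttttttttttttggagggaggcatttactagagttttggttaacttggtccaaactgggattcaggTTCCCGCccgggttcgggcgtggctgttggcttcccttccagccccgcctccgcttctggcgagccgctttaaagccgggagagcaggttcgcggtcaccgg
Flii, chr11:60727214-60727513, minus strand: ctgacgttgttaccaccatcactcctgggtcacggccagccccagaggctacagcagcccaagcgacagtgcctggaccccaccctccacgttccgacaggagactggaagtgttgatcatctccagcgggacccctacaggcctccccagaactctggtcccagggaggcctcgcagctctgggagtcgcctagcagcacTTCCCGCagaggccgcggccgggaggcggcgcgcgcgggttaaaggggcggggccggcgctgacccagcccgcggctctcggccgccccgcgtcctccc
Capg, chr6:72549397-72549696, plus strand: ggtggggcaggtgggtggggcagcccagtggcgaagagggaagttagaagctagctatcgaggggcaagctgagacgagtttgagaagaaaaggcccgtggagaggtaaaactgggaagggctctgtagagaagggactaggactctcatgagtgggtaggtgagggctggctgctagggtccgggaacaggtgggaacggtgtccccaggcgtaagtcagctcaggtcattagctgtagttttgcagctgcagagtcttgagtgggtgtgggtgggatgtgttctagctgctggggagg
The motifs were the C/EBP motif TTGCNNAA and its palindrome TTGCGCAA, the E2F cores TTCCCGC and TTGGCGC, the GATA motifs AGATAA and TGATAA, and the CArG box bound by serum response factor. The Scin window had a GC content of 52%, against a median of 52.7% over 32851 windows, and its only match was TTCCCGC, on the plus strand of the printed sequence at base 199 of the window. Flii had the same letters at base 202, with a GC content of 70%. TTCCCGC occurs in 4.6% of all windows. The Capg window and the 3 windows of Gsn had 0 matches to any of these letters. Of the members with a window, Avil had the C/EBP motif, as TTGCTGAA at base 282, and 1 AGATAA at base 149, and Vil1 had 1 CArG box, CCTTATATGG, at base 178. Among all windows, TTGCNNAA occurs in 10.8%, TTGCGCAA in 0.183%, TTGGCGC in 2.45%, AGATAA in 11.2%, TGATAA in 9.05% and the CArG box in 1.63%. A match describes letters only, and a window with no match says nothing about whether the factor binds there or elsewhere.

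Scin split the 15 arrays by the Cebpa genotype. In GMP fl/p30 its log2 values were 11.74, 11.35 and 10.91, in GMP fl/BRM2 10.39, 11.22 and 10.93, and in GMP fl/+ 5.85, 6.01 and 6.52. In preGM fl/p30 they were 10.69, 10.57 and 10.64, against 5.93, 5.75 and 5.83 in preGM +/+. All 9 mutant arrays lay above all 6 control arrays, with a gap of 4.51 between the preGM fl/p30 mean and the next lower mean, that of GMP fl/+. The group means ran, in falling order, 11.33 ± 0.42 in GMP fl/p30, 10.84 ± 0.42 in GMP fl/BRM2, 10.63 ± 0.06 in preGM fl/p30, 6.13 ± 0.35 in GMP fl/+ and 5.84 ± 0.09 in preGM +/+ (SD, n = 3 each). Neighbours in this order overlapped except across the gap between mutants and controls. All mutant arrays, but only 1 of 3 GMP fl/+ arrays and 0 of 3 preGM +/+ arrays, were above their array's median, so the control level lay near or below the array medians.

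**Figure D1:**
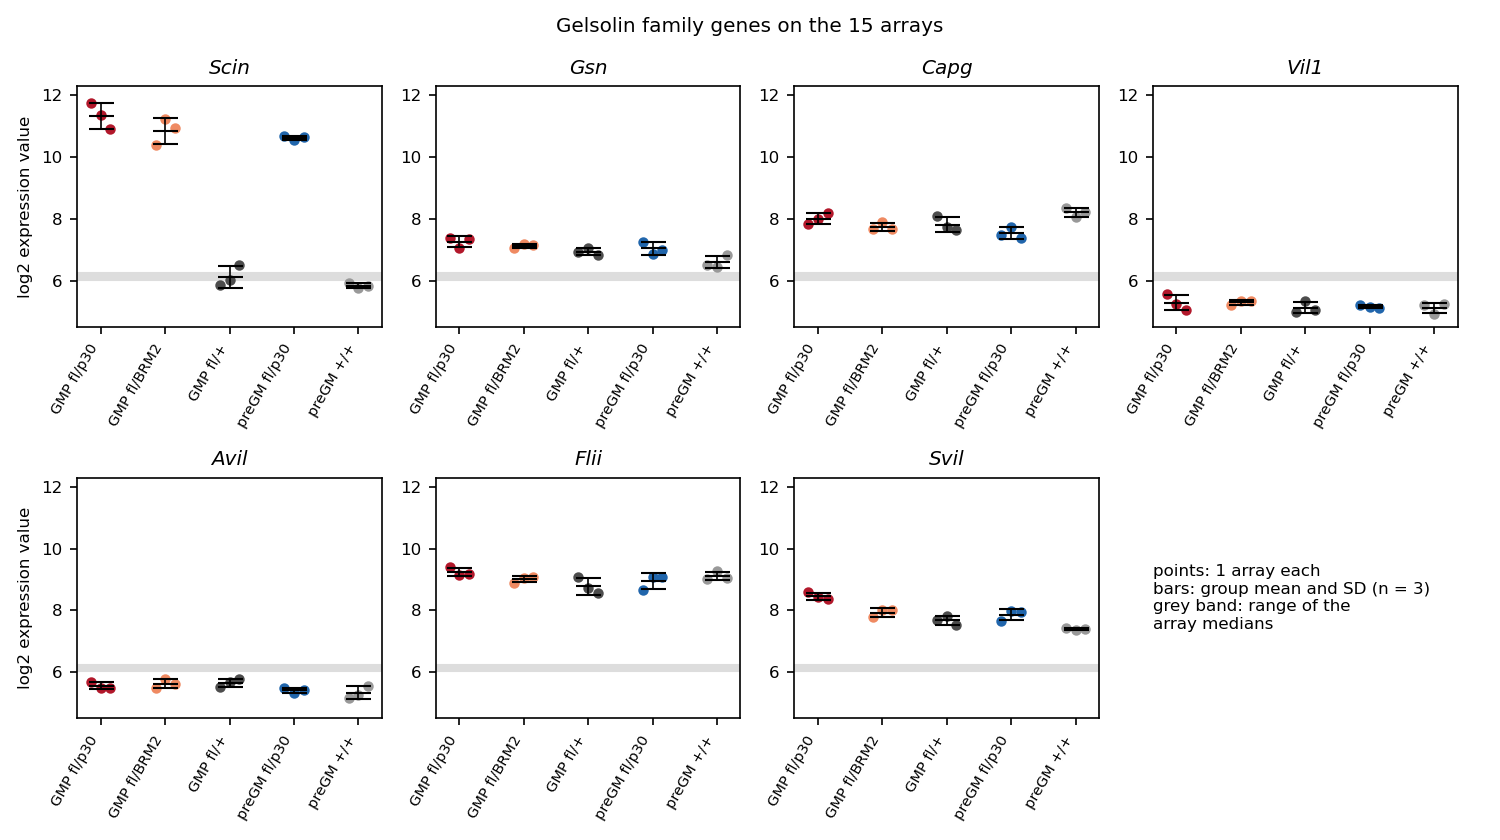
Log2 expression value of each of the 7 gelsolin family genes (vertical axis) on every array, by group (horizontal axis); each point is 1 array, bars are the group mean and SD (n = 3), and the grey band is the range of the array medians, 6.03 to 6.23. Scin lies above 10 in the 3 mutant groups and near the band in both control groups, while Vil1 and Avil lie below the band in every group.

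As differences, Scin in GMP fl/p30 exceeded GMP fl/+ by 5.21 (36.9-fold), was 4.72 higher in GMP fl/BRM2 than in GMP fl/+ (26.3-fold), and 4.79 higher in preGM fl/p30 than in preGM +/+ (27.7-fold). These were the differences that chose the family. Among 19937 genes, Scin had the highest difference in both GMP comparisons and the second highest in preGMs (rank 2). Both GMP comparisons share the GMP fl/+ arrays. For p30, the difference between mutant and control was 0.41 larger in GMPs than in preGMs, whose controls differ in genotype. This value rests on the same choice and was not tested. In sorted bulk samples, more cells expressing Scin and more Scin RNA per cell cannot be told apart.

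Summed levels of several other lineage marker lists were higher in mutant groups than in controls, and their part in the Scin level was not tested. Such a sum can be carried by 1 bright gene, so the median difference of each list is also given. The counts called below stand beside 6.06%, 2.53% and 1.68% of all genes in GMP fl/p30, GMP fl/BRM2 and preGM fl/p30 against their controls. Of the macrophage and B cell genes measured, 0 of 8 and 0 of 6 were called in each of these 3 comparisons. Their median differences, in this order, were 0.07, 0.06 and 0.01 for macrophage genes and 0.02, 0.20 and -0.33 for B cell genes. For megakaryocyte genes the medians were 0.67, 0.48 and 0.34, and for mast cell and basophil genes 0.40, 0.46 and 0.10. For erythroid genes they were 1.05, 1.20 and 0.29. For T and NK cell genes they were 0.68, 0.02 and 0.12, and for stroma and endothelium genes 0.03, 0.03 and 0.14. Scin is known in megakaryocytes, and 5 of 8 megakaryocyte genes were measured: their summed linear level was 321 to 481 in GMP fl/p30, 330 to 417 in GMP fl/BRM2 and 271 to 290 in GMP fl/+, and 393 to 533 in preGM fl/p30 against 280 to 358 in preGM +/+. Of these 5, 0 were called in GMP fl/p30, 1 in GMP fl/BRM2 (Gp5, 1.03 higher, adjusted p = 0.0441) and 0 in preGM fl/p30 against their controls. Itga2b, the CD41 gene that the gate excludes on the surface, was raised by 1.04 in GMP fl/p30 against GMP fl/+ (adjusted p = 0.0244). It was 0.99 higher in GMP fl/BRM2 (adjusted p = 0.0534) and 0.53 higher in preGM fl/p30 (adjusted p = 0.363, limma) than in their controls, without a call. The 8 mast cell and basophil genes summed to 3334 to 5259 in GMP fl/p30, 3247 to 4679 in GMP fl/BRM2 and 1643 to 1968 in GMP fl/+, and to 3445 to 4873 in preGM fl/p30 against 1145 to 1427 in preGM +/+. They did not move as a block: Cpa3, a mast cell protease, was called higher in all 3 mutant groups, Cma1 in both GMP mutants, and Hdc, which makes histamine, was called lower in all 3. The 5 erythroid genes measured summed to 1936 to 3905 in GMP fl/p30, 1502 to 4639 in GMP fl/BRM2 and 507 to 799 in GMP fl/+, and to 3588 to 5524 in preGM fl/p30 against 1952 to 2537 in preGM +/+. Car1, Car2 and Gata1 were called higher in both GMP mutants, and 0 of the 5 in preGM fl/p30. The 7 T and NK cell genes summed to 2390 to 3488 in GMP fl/p30, 2520 to 3099 in GMP fl/BRM2 and 1791 to 3404 in GMP fl/+, and to 1998 to 2313 in preGM fl/p30 against 1290 to 1359 in preGM +/+, with 3, 1 and 1 of them called higher in the 3 comparisons. Lat, an adaptor of T cell signalling also used by mast cells and platelets, was the one called in all 3, by 2.04, 1.86 and 1.75. The 7 stroma and endothelium genes summed to 1904 to 2364 in GMP fl/p30, 1856 to 2288 in GMP fl/BRM2 and 1015 to 1088 in GMP fl/+, and to 1474 to 1953 in preGM fl/p30 against 1415 to 1577 in preGM +/+. Of these, Pecam1, an adhesion gene of endothelium and of blood cells, was the 1 called, higher by 1.502 in GMP fl/p30 and 1.35 in GMP fl/BRM2, and 0 of the 7 were called in preGM fl/p30. The 7 myeloid identity genes had lower sums in the mutant preGMs, 7842 to 9458 in preGM fl/p30 against 13054 to 15002 in preGM +/+, while in GMPs the sums were 9760 to 23215 in GMP fl/p30, 11188 to 21689 in GMP fl/BRM2 and 21886 to 27225 in GMP fl/+. In each comparison 1 of the 7 was called lower: Csf2ra, a cytokine receptor subunit, with differences of -1.11 in GMP fl/p30 and -1.21 in GMP fl/BRM2, and Csf1r, the receptor of macrophage colony-stimulating factor, with -2.04 in preGM fl/p30.

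Comparisons between mutant groups and between stages were not used to choose Scin and were tested. Between the 2 mutant alleles in GMPs, Scin differed by 0.49 ± 0.23, GMP fl/p30 being above GMP fl/BRM2 (SE, 95% interval 0.00 to 0.98), the arrays overlapped, and the adjusted p was 1 in limma. Across stages, Scin was 0.70 ± 0.23 higher in fl/p30 GMPs than in fl/p30 preGMs (SE, 95% interval 0.21 to 1.19). Each GMP array was above each preGM array, and within animals the difference was 1.05, 0.78 and 0.27, yet the test over all genes gave an adjusted p of 0.196 and made no call. Over these GMP arrays, in the same order, the erythroid sums were 3905, 2806 and 1936 and the myeloid identity sums 9760, 14953 and 23215. In GMP fl/BRM2 the erythroid sums were 1502, 4639 and 3566, beside Scin at 10.39, 11.22 and 10.93. In GMP fl/+ the erythroid sums, 799, 507 and 564, did not follow Scin at 5.85, 6.01 and 6.52. A link of these sums to Scin was not tested. Between the controls, where the level is near or below the array medians, GMP fl/+ was 0.29 ± 0.23 higher than preGM +/+ (SE, adjusted p = 0.393 in limma). The stage difference of Scin was therefore small beside the gap of 4.51 between mutants and controls in both genotypes.

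**Figure D2:**
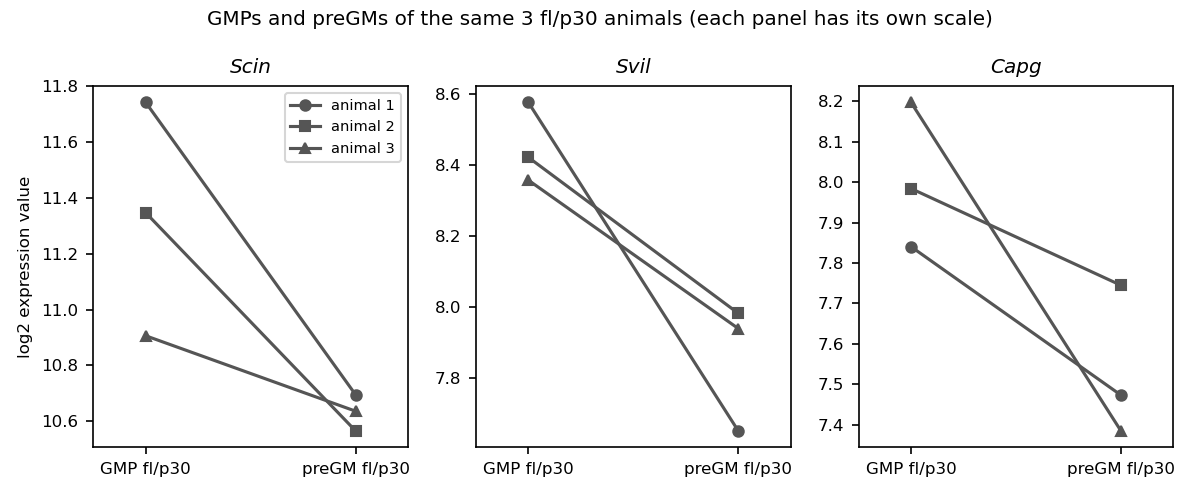
Log2 expression values of Scin, Svil and Capg in GMP fl/p30 (left) and preGM fl/p30 (right), lines joining the 2 samples of each of the 3 animals, with a scale of its own in each panel. All 3 animals have a higher value in GMPs than in preGMs for each gene, by 0.27 to 1.05 for Scin, 0.42 to 0.93 for Svil and 0.24 to 0.81 for Capg.

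The other 6 members differed little between groups beside Scin. The span between the highest and lowest group mean was 5.49 for Scin, a larger span than that of almost all genes, 1.06 for Svil, 0.67 for both Capg and Gsn, 0.45 for Flii, 0.32 for Avil and 0.18 for Vil1, and the median over all genes was 0.35. The spans of Svil, Capg, Gsn and Flii were larger than those of 93.7%, 82.5%, 82.4% and 65% of genes. Against GMP fl/+, 1 of the 6 members was called in GMP fl/p30, where 6.06% of all genes were called, and 3 of 6 had an unadjusted p under 0.05, as did 20% of all genes. In GMP fl/BRM2 against GMP fl/+, 0 of 6 were called and 0 had an unadjusted p under 0.05 in limma, where 2.53% of all genes were called and 15% had an unadjusted p under 0.05. In preGM fl/p30 against preGM +/+, 1 of 6 was called and 3 had an unadjusted p under 0.05, where 1.68% of all genes were called and 14% had an unadjusted p under 0.05. The median difference of the 6 members was 0.26, 0.18 and 0.06 in these comparisons, beside medians of -0.04, -0.02 and 0.03 over all genes.

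**Figure D3:**
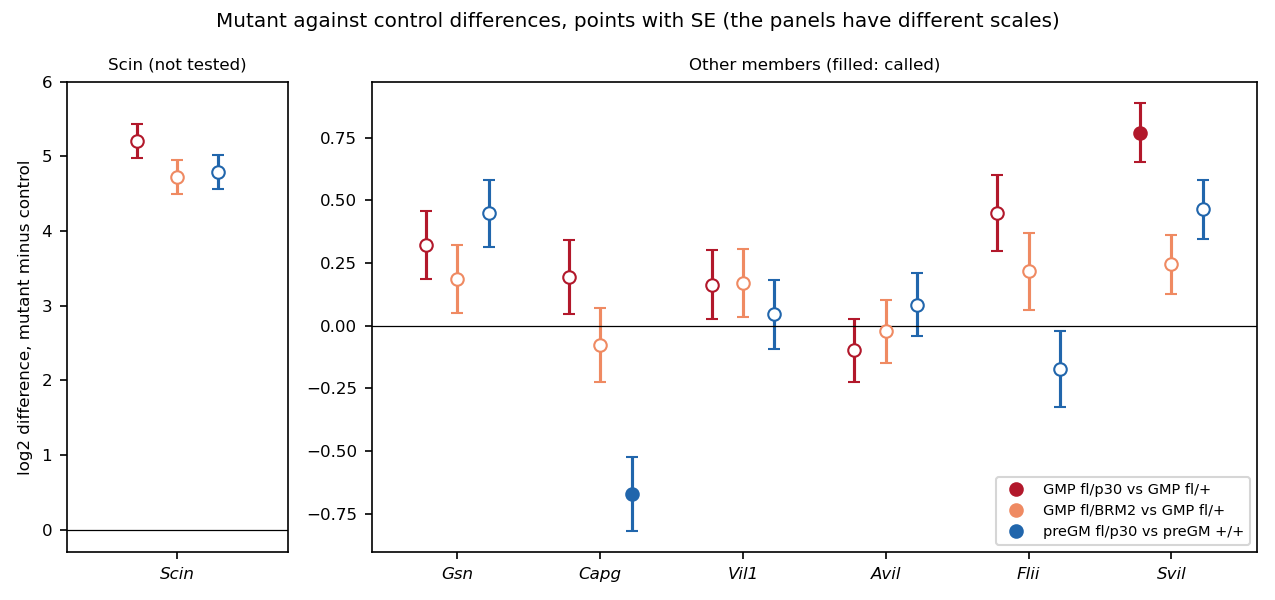
Log2 difference between mutant and control with its SE (vertical axis) for Scin (left panel, not tested) and the other 6 members (right panel, on a smaller scale), in GMP fl/p30 and GMP fl/BRM2 against GMP fl/+ and in preGM fl/p30 against preGM +/+. Filled points were called: Svil in GMP fl/p30 at 0.77 and Capg in preGM fl/p30 at -0.67, while the differences of Scin are between 4.72 and 5.21.

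Svil, which links actin and myosin II to membranes, was the 1 tested member that rose in GMP fl/p30. Its values were 8.58, 8.42 and 8.36 in GMP fl/p30, 7.77, 7.999 and 8.01 in GMP fl/BRM2 and 7.68, 7.83 and 7.53 in GMP fl/+. In preGM fl/p30 they were 7.65, 7.98 and 7.94, against 7.41, 7.37 and 7.40 in preGM +/+. The GMP fl/p30 arrays lay above the arrays of all other groups, and the preGM +/+ arrays below them all. In GMP fl/p30, Svil exceeded its GMP fl/+ level by 0.77 ± 0.12 (SE, 1.71-fold, adjusted p = 0.0015 in limma) and stayed called without any 1 of the 6 arrays compared (0.70 to 0.84), but not in a fit of those 6 arrays alone (adjusted p = 0.0567). In GMP fl/BRM2 it was 0.24 ± 0.12 higher than in GMP fl/+ (SE, adjusted p = 0.356), with overlapping arrays. In preGM fl/p30 it was 0.46 ± 0.12 higher than in preGM +/+ (SE, adjusted p = 0.071), with no overlap and no call.

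Tested directly, Svil in GMP fl/p30 exceeded GMP fl/BRM2 by 0.53 ± 0.12 (SE, 95% interval 0.27 to 0.78), without overlap, and its adjusted p over all genes was 0.423 in limma. Of the 7 members, 0 were called between these alleles and 2, Scin and Svil, had an unadjusted p under 0.05. Of all 19937 genes, 1 was called, a share of 0.00502%, and 3.45% had an unadjusted p under 0.05. Svil was the only member called between the fl/p30 stages, at 0.60 ± 0.12 higher in GMPs than in preGMs (SE, 1.51-fold, adjusted p = 0.0363), where 0.642% of all genes were called. Within the 3 animals, in the same order as for Scin, the difference was 0.93, 0.44 and 0.42. That call was lost with the animal as a paired term in the 6 fl/p30 arrays (adjusted p = 0.136), and in each of the 6 fits that left out 1 of these arrays (0.49 to 0.66, adjusted p up to 0.115).

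Capg, the capping protein that does not sever, went the other way in preGMs. Its values were 7.47, 7.74 and 7.38 in preGM fl/p30, against 8.34, 8.07 and 8.21 in preGM +/+. Among GMPs, the fl/p30 arrays gave 7.84, 7.98 and 8.20, the fl/BRM2 arrays 7.66, 7.89 and 7.66, and the fl/+ arrays 8.09, 7.72 and 7.62. The preGM groups did not overlap, whereas the 3 GMP groups did. Capg was lower in preGM fl/p30 than in preGM +/+, with a difference of -0.67 ± 0.15 (SE, 1.59-fold lower, adjusted p = 0.0337 in limma), while in GMPs the difference was 0.19 for fl/p30 (adjusted p = 0.521) and -0.08 for fl/BRM2 (adjusted p = 0.89). The preGM call held without preGM fl/p30 replicate 2 but was lost without any other 1 of the 6 arrays of these groups (-0.78 to -0.60, adjusted p up to 0.16).

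The test of whether the p30 difference depends on the stage also compares the control genotypes, which cannot be told apart from the stage. For Capg it gave 0.87 ± 0.21 (SE, 95% interval 0.42 to 1.31, adjusted p = 0.128 in limma), so Capg was not called. It was called, at 1.01 (adjusted p = 0.0107), when GMP fl/+ replicate 1 was left out. Of 6 members tested for this dependence, 0 were called and 2, Capg and Flii, had an unadjusted p under 0.05 in limma, with 0.00502% of all genes called and 13.1% at an unadjusted p under 0.05. The Flii value was 0.62 ± 0.22 (SE, adjusted p = 0.267), and 0.77 (adjusted p = 0.0345) without the same array. Between the fl/p30 stages Capg was 0.47 ± 0.15 higher in GMPs (SE, adjusted p = 0.174), in all 3 animals (0.37, 0.24 and 0.81).

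Gsn, the gene of gelsolin itself, kept the same order of group means as Scin at a far smaller scale, an order that Svil shared. Its values were 7.39, 7.05 and 7.35 in GMP fl/p30, 7.04, 7.18 and 7.15 in GMP fl/BRM2, and 6.93, 7.05 and 6.84 in GMP fl/+. In preGM fl/p30 they were 7.26, 6.88 and 6.98, and in preGM +/+ they were 6.51, 6.45 and 6.81. Only the preGM +/+ arrays stood apart from the group above them. The differences were 0.32 ± 0.13 in GMP fl/p30 against GMP fl/+ (SE, adjusted p = 0.193), 0.19 in GMP fl/BRM2 against GMP fl/+ (adjusted p = 0.598) and 0.45 ± 0.13 in preGM fl/p30 against preGM +/+ (SE, adjusted p = 0.134), none of them called by limma. The upper ends of their 95% intervals were 0.61, 0.47 and 0.74.

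Flii, the leucine-rich repeat member, measured 9.39, 9.13 and 9.18 in GMP fl/p30, 8.89, 9.04 and 9.08 in GMP fl/BRM2, and 9.09, 8.72 and 8.55 in GMP fl/+. It measured 8.65, 9.09 and 9.09 in preGM fl/p30, against 9.03, 9.26 and 9.05 in preGM +/+. The GMP fl/p30 arrays lay above those of GMP fl/+, by 0.45 ± 0.15 on average (SE, adjusted p = 0.107), a difference that was called without GMP fl/+ replicate 1 (0.60, adjusted p = 0.0147). The GMP fl/BRM2 and preGM fl/p30 differences were 0.22 (adjusted p = 0.583) and -0.17 (adjusted p = 0.657), with overlapping arrays.

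The gut and sensory neuron members were dim. Vil1 ranged from a lowest value of 4.91 to a highest of 5.55 and Avil from 5.16 to 5.78, and both were below the array median on 15 of 15 arrays. Their differences between mutants and controls were between -0.10 and 0.17, with adjusted p-values between 0.57 and 0.967 in limma, and their groups overlapped in all 3 comparisons. At this signal a difference in either gene may not be detectable. Scin was below the median on 5 arrays, all of them controls, and Gsn, Capg, Flii and Svil were above it on 15 of 15.

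Between the control stages, 0 of the 7 members were called and 5 had an unadjusted p under 0.05 in limma, where 10.2% of all genes were called and 31.7% had an unadjusted p under 0.05. The differences of GMP fl/+ from preGM +/+ were 0.35 for Gsn, -0.39 for Capg, 0.32 for Avil, -0.33 for Flii and 0.29 for Svil, with adjusted p-values of 0.0932 to 0.157. Capg and Flii were called without GMP fl/+ replicate 1, at -0.53 (adjusted p = 0.0184) and -0.48 (adjusted p = 0.0335). Scin's stage difference of 0.29 between the controls was of the same size as these, and its adjusted p was 0.393.

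Other regulators of actin were read from 6 lists with 90 entries, of which 84 were measured. In GMP fl/p30 against GMP fl/+, 12 were called higher and 0 lower (14.3% of the measured genes), in GMP fl/BRM2 5 were called higher and 0 lower (5.95%), and in preGM fl/p30 against preGM +/+ 0 were called higher and 2 lower (2.38%). These shares stand beside 6.06%, 2.53% and 1.68% of all genes. Without 1 array at a time the counts ran between 4 and 27, between 2 and 20, and 0 throughout in preGMs, the higher counts coming without GMP fl/+ replicate 1. Of the 18 severing and depolymerising factors, the group closest to Scin in action, 1 was called higher in GMP fl/p30 (Ssh2, a phosphatase that activates cofilin, by 0.79 ± 0.16, SE, adjusted p = 0.00932) and 0 in either other comparison. Cfl1, the main cofilin, differed by 0.19 in GMP fl/p30 (adjusted p = 0.45). All 4 measured proteins with a villin headpiece outside the family went without a call in the 3 comparisons.

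**Figure D4:**
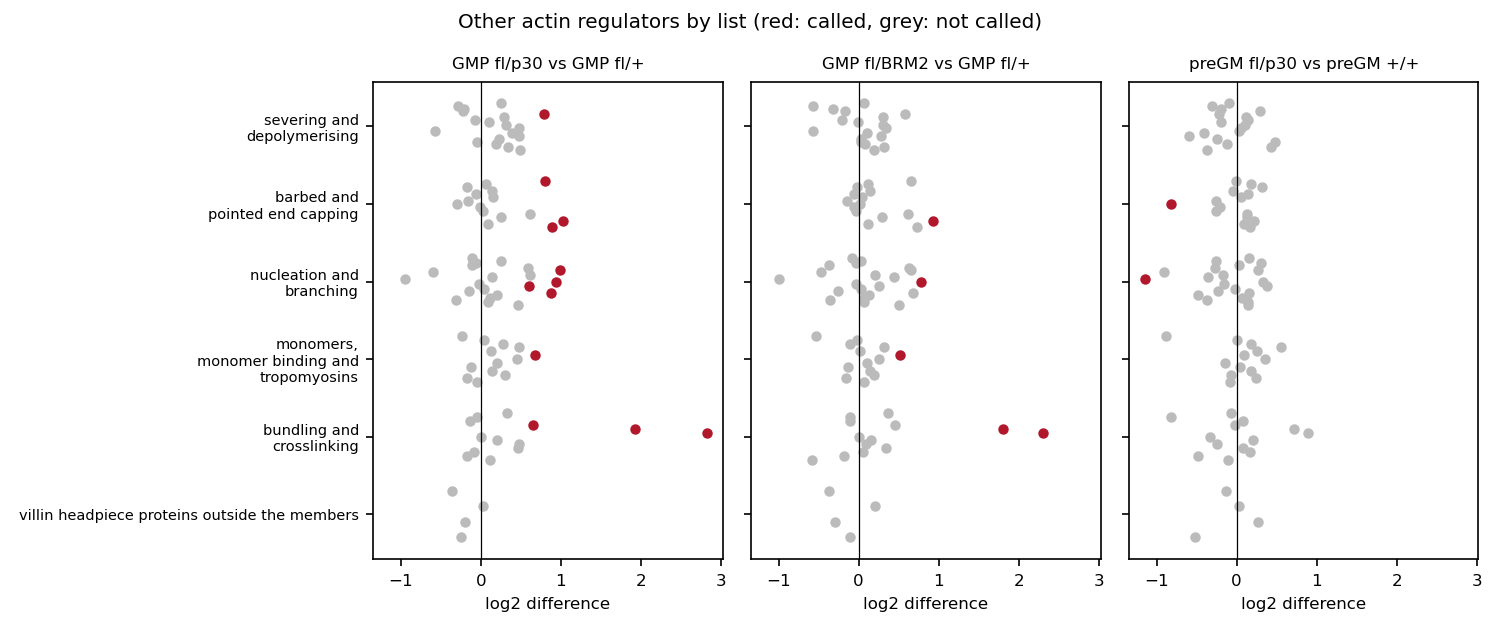
Log2 difference (horizontal axis) of each of 84 other actin regulators, by list (rows), in GMP fl/p30 and GMP fl/BRM2 against GMP fl/+ and in preGM fl/p30 against preGM +/+; each point is 1 gene, red where it was called. The red points farthest to the right are Marcks and Marcksl1, at 2.83 and 1.93 in GMP fl/p30 and 2.31 and 1.81 in GMP fl/BRM2.

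The called actin genes of largest difference were Marcks and Marcksl1, protein kinase C substrates that bind actin at the membrane. Marcks was higher by 2.83 ± 0.34 in GMP fl/p30 (SE, adjusted p = 0.000232) and by 2.31 ± 0.34 in GMP fl/BRM2 (SE, adjusted p = 0.00227), and Marcksl1 by 1.93 ± 0.26 (SE, adjusted p = 0.000562) and 1.81 ± 0.26 (SE, adjusted p = 0.00171), and both stayed called without any 1 array of those compared. In a fit of the 6 compared arrays alone, Marcks lost its call in GMP fl/BRM2 (adjusted p = 0.0814). Unlike Scin, both were lower in GMP fl/+ than in preGM +/+, with differences of -2.29 (adjusted p = 0.00175) and -1.43 (adjusted p = 0.00487). Tmsb10, a thymosin that binds actin monomers, and Diaph1, a formin, were higher in GMP fl/p30 by 0.68 and 0.94 (adjusted p = 0.00397 and 0.00741), and remained called without any 1 array but not in a fit of the 6 compared arrays alone (adjusted p = 0.128 and 0.136). The adducins Add3 and Add1, which cap filaments in the membrane skeleton, were higher in GMP fl/p30 by 1.02 and 0.88, Tmod3, a cap of pointed ends, by 0.80, Hcls1, a cortactin relative of blood cells, by 0.99, Arpc5, an Arp2/3 subunit, by 0.88, and Msn, the linker moesin, by 0.66, with adjusted p-values of 0.00996 to 0.0463. Each of these 6, and Ssh2 with them, lost its call without GMP fl/p30 replicate 1 (adjusted p between 0.052 and 0.13), and Arpc5 was lost in 5 of 6 such fits. In preGM fl/p30, Cd2ap and Diaph2 were lower, with differences of -0.82 (adjusted p = 0.0347) and -1.14 (adjusted p = 0.0497), and lost their call without any 1 array. Between the controls, 4 of the 84 were called higher and 14 lower in GMP fl/+ (21.4%, beside 10.2% of all genes), and 0 of the 84 were called in the other comparisons.

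The genes whose values followed Scin most closely over the 15 arrays were named by the smallest root mean square difference of log2 deviations from each gene's own mean, a measure that is 0 for identical deviations. Clones and predicted genes (symbols of Gm or LOC plus digits, or ending in Rik) were left out of the ranking. The nearest 8 were Gzmb at 0.78, St8sia6 at 1.01, Il6 at 1.09, Cpa3 at 1.24, Plxdc2 at 1.27, Prkca at 1.30, and Alox5 and Zfp711 at 1.35, against a median of 2.45 over the genes ranked. At least 7 of the 8 stayed among the nearest when 1 array was left out, when arrays were centred and when probe sets of a gene were averaged. Gzmb, the granzyme B gene, was 4.63 higher in GMP fl/p30 and 4.51 higher in GMP fl/BRM2 than in GMP fl/+, and 5.23 higher in preGM fl/p30 than in preGM +/+. It departs from Scin in the controls, where GMP fl/+ was 2.21 higher than preGM +/+, beside 0.29 for Scin. Il6, a cytokine gene, was 4.33 and 4.07 higher in the GMP mutants but only 1.85 higher in preGM fl/p30, and Alox5, the 5-lipoxygenase gene, was 3.01, 2.68 and 1.61 higher in the same order. St8sia6, Cpa3, Plxdc2 and Prkca also had smaller differences in preGM fl/p30 (2.37, 2.53, 1.68 and 1.57) than in GMP fl/p30 (3.97, 3.09, 3.28 and 3.29). Zfp711 was the one of the 8 with the largest difference in preGMs relative to its GMP differences, at 3.14 in preGM fl/p30 against 2.53 and 2.10 in GMP fl/p30 and GMP fl/BRM2. These values describe likeness over arrays of which 9 are mutant, and the genes were picked for it.

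**Figure D5:**
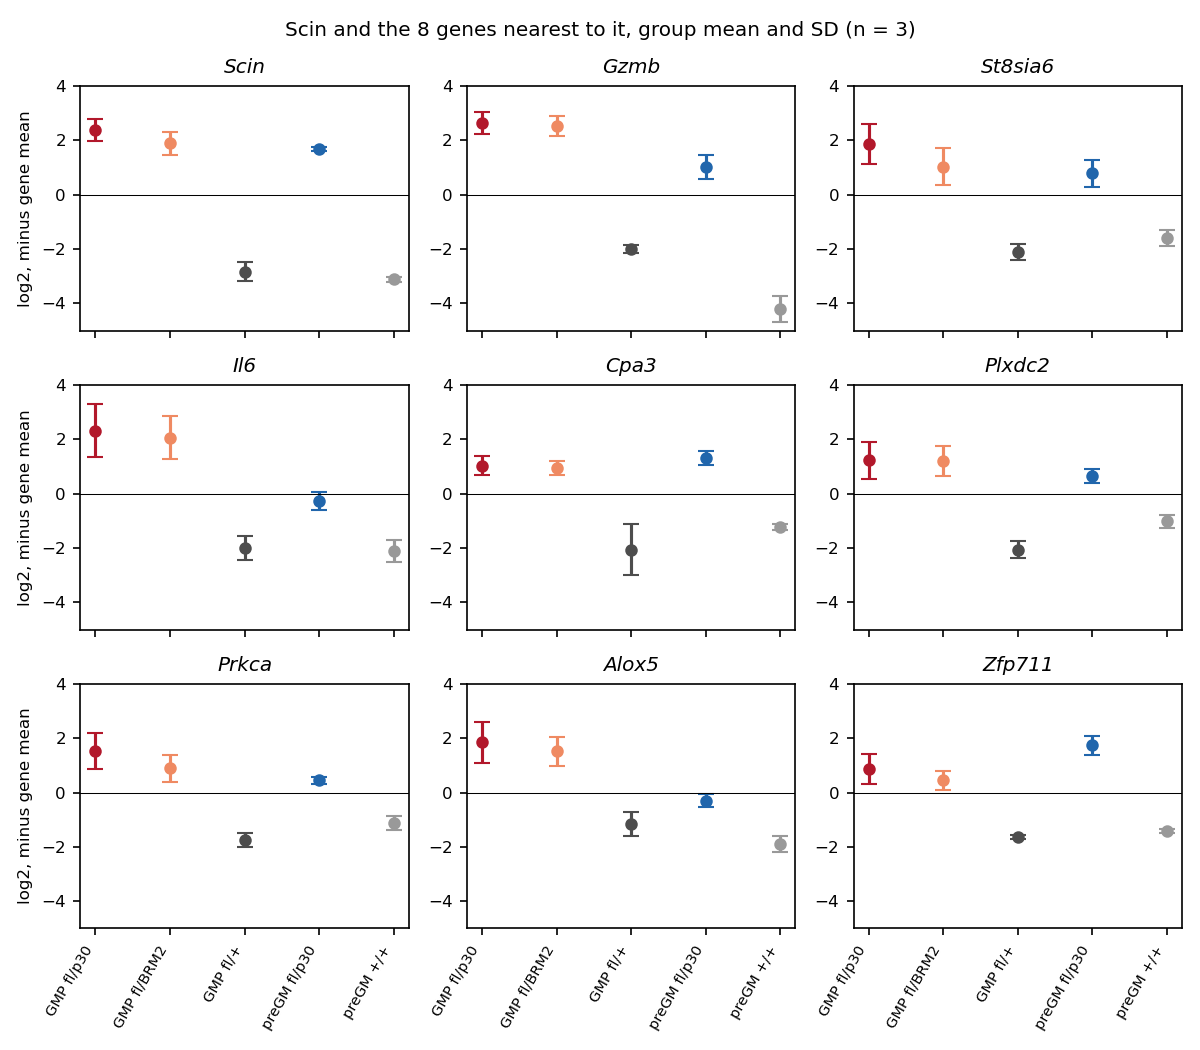
Group mean and SD (n = 3) of Scin and of the 8 genes nearest to it, as log2 values minus the mean of the gene's 5 group means (vertical axis), by group (horizontal axis). The 3 mutant groups lie above the control groups in all 9 panels. The preGM fl/p30 point lies below GMP fl/p30 by 0.70 for Scin. This distance is larger for Il6 (2.58), Alox5 (2.14), Gzmb (1.61), Prkca (1.10) and St8sia6 (1.09). It is smaller for Plxdc2 (0.56), and the preGM fl/p30 point is the higher one for Cpa3 (-0.28) and Zfp711 (-0.85).

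For Svil the nearest genes were Stat3 at 0.16, Susd2 at 0.16 and Srxn1 at 0.17, against a median of 0.41 over the genes ranked, and 1 to 3 of them stayed among its nearest when 1 array was left out. Stat3, a cytokine-activated transcription factor, averaged 9.67 ± 0.24 in GMP fl/p30, 9.42 ± 0.10 in GMP fl/BRM2, 9.04 ± 0.10 in GMP fl/+, 9.41 ± 0.15 in preGM fl/p30 and 8.93 ± 0.14 in preGM +/+ (SD, n = 3 each). Its order of group means was that of Svil. The 3 distances are small in part because Svil itself varied little, with a root mean square deviation of 0.36.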

How the data were processed

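Per the submitters' processing notes, the deposited log2 expression values were made with affy and RMA, which corrects background, equalises array distributions and summarises probes; the sources used here do not state versions. Per the labels' protocols, 20 ng of RNA was amplified and hybridised to Affymetrix Mouse Gene 1.0 ST arrays. Of 34760 probe sets, 21640 had 1 symbol in the platform annotation, 1321 several and 11799 none; those with 1 symbol matched RefSeq (GRCm38.p6) by Entrez ID in 21553 cases. Genes with several probe sets (954 of 19937) were represented by the one with the highest mean; no dim probe sets were removed. Arrays have no read depth, and 3 per group limit the precision. limma 3.58.1 (R 4.3.3) fitted 5 group means and eBayes without trend, with 10 residual and 4.24 prior degrees of freedom, for 7 comparisons; adjusted p-values are Benjamini-Hochberg values over all genes. The script was tested on simulated data. Groups share 1 estimate of the spread although their within-group SDs (root mean square) were 0.269 in GMP fl/p30, 0.195 in GMP fl/BRM2, 0.319 in GMP fl/+, 0.211 in preGM fl/p30 and 0.165 in preGM +/+. The p-values measure the spread between samples of different animals.

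Named genes were all 7 members, up to 3 called genes of each actin list in the mutant comparisons and up to 2 in the others, and the 8 and 3 nearest genes of Scin and Svil. Members and lists were chosen with earlier results of these data known. The labels' animal numbers pair the fl/p30 samples of both stages: deviations from group means correlated by 0.33, 0.32 and 0.12 within the 3 animals. Alternatives were each array left out, array weights, eBayes with trend, centred arrays, probe set averaging, fits of the compared arrays alone, and replicate blocks.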

Additional observations from a re-analysis of the deposited data

How the results depend on the processing

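Of 659 settings run for the tested differences of the members, 605 kept both their direction and their side of the threshold, 35 changed the call and 19 changed sign, none of the 19 being called on either side. Scin kept both in 42 of 43, the exception being the fl/p30 stages, where it was called with array weights (0.70, adjusted p = 0.0175 in limma). In the 62 settings of its untested differences it moved by less than 1 within-group SD. Scin's differences between mutants and controls stayed between 4.97 and 5.42 in GMP fl/p30, 4.53 and 4.95 in GMP fl/BRM2 and 4.73 and 4.84 in preGM fl/p30. With array weights the number of members called was 2 in GMP fl/p30 and 1 in GMP fl/BRM2 against GMP fl/+, 2 in preGM fl/p30 against preGM +/+, 1 between GMP fl/p30 and GMP fl/BRM2, 3 between the fl/p30 stages, 3 between the control stages and 2 for the dependence of the p30 difference on the stage. It was 0 in GMP fl/p30 against GMP fl/+ and between the fl/p30 stages when only the compared arrays were fitted, 0 in preGM fl/p30 and between the fl/p30 stages with an eBayes trend, and 0 in preGM fl/p30 with centred arrays (Capg, adjusted p = 0.054). With the replicate block, as replicate number, it was 0 in preGM fl/p30 (Capg, adjusted p = 0.0635) and 0 between the fl/p30 stages (Svil, adjusted p = 0.0594), and with the animal as a paired term it was 0 there; the block changed no other member's call. Leaving out 1 array gave 1 to 2 members in GMP fl/p30, 0 to 1 in preGM fl/p30 and 0 in each fit between the fl/p30 stages. It gave 0 to 2 between the controls and 0 to 2 for the stage dependence. The count of 2 came without GMP fl/+ replicate 1. Without 1 array, calls over all genes ran from 537 to 3078 in GMP fl/p30 and from 101 to 223 in preGM fl/p30. They ran from 26 to 120 between the fl/p30 stages, 636 to 4686 between the controls and 0 to 1482 for the stage dependence. Calls thus moved with the settings over all genes too, and the changes in member counts are not read as particular to the family. The changes of sign were in differences near 0. With array weights Capg was 0.021 in GMP fl/BRM2 against GMP fl/+, Gsn -0.039 between GMP fl/p30 and GMP fl/BRM2, and Vil1 -0.038 between the controls. With centred arrays Vil1 was -0.013 in preGM fl/p30 against preGM +/+, 0.043 between the alleles and -0.070 between the controls. Leaving out 1 array gave -0.17 to 0.064 for Capg and -0.10 to 0.047 for Avil in GMP fl/BRM2, -0.15 to 0.000243 for Avil between the alleles, and for Vil1 -0.055 to 0.10 in preGM fl/p30, -0.14 to 0.11 between the alleles, -0.000823 to 0.24 between the fl/p30 stages, -0.093 to 0.077 between the controls and -0.013 to 0.23 for the stage dependence. The causes were not tested. Over all genes, the 1209 calls in GMP fl/p30 ranged between 172 and 4063, the 505 in GMP fl/BRM2 between 131 and 2218, the 334 in preGM fl/p30 between 101 and 1167, the 1 between alleles between 0 and 283, the 128 between the fl/p30 stages between 26 and 1948, the 2036 between controls between 636 and 4686, and the 1 for stage dependence between 0 and 1991. The actin list counts (chosen after seeing the data, as were the settings for single list genes) ranged between 2 and 35, 1 and 20 and 0 and 8 in the mutant comparisons. Signals below the array median, as of Vil1, Avil and Scin in controls, limit what can be detected.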
